A study of Mus musculus with 9 samples.

Results

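The genes described here are 9 members of 2 linked systems that control breakdown of the cartilage matrix: the tissue inhibitors of metalloproteinases Timp1, Timp2, Timp3 and Timp4, the membrane-anchored inhibitor Reck, the plasminogen activators Plat and Plau, the urokinase receptor Plaur, and the serpin Serpine2. They were listed by name for their role in these systems, with earlier results of these data known. The files hold 55471 gene rows in all, and all 9 were found. They were measured by RNA-seq in 9 cultures of primary articular chondrocytes, which had been taken from femoral condyles and tibial plateaus of wild-type mice at postnatal day 5 and grown on plates coated with COLpep, a collagen peptide that the receptor OSCAR binds. The 3 Control cultures received a control adenovirus (Ad-Control in the methods), the 3 Ad-OSCAR cultures an adenovirus that overexpresses OSCAR, and the 3 Ad-OSCAR + 5-ASA cultures the same virus followed by 5-aminosalicylic acid (5-ASA). No cultures infected with the control virus and given 5-ASA were compared. The sample descriptions give 3 days of culture, 2 h of infection at 400 MOI and 36 h before 5-ASA, whereas the methods give 2 days, 800 MOI and 24 h with or without 10 µM 5-ASA, so the dose and times cannot be settled here. No source used here says whether the cultures of a group came from separate animals, so p-values measure the spread between these cultures.

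Matrix metalloproteinases and aggrecanases cut collagen and aggrecan, and the secreted TIMPs block them by sitting in their active site. TIMP-3 is known for being held in the matrix itself and for inhibiting aggrecanases and ADAM17 beside the metalloproteinases, and RECK is a cell-surface inhibitor of several of the same enzymes. The second system makes plasmin, a broad protease that also activates metalloproteinase precursors: tissue-type activator (Plat) and urokinase (Plau) cut plasminogen, the receptor encoded by Plaur holds urokinase at the cell surface, and serpins such as protease nexin-1 (Serpine2) inhibit both activators.

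Promoters are printed for Timp3 and Reck, whose levels fell most in the results that follow, for Timp1 and Serpine2, whose levels rose, and for Plaur, whose window alone held an AP-1 motif. The RefSeq table (GRCm38.p6) held 7 of the 9 genes, with Plat and Plau missing. Each sequence is the 250 bases before a single RefSeq start, read 5′ to 3′ on the strand of the gene. The Serpine2 and Timp2 windows and the end of the Timp3 window lie within the gene spans given below, not before them. Capitals mark GC boxes (GGGCGG, on either strand) and, in Plaur, an AP-1 motif (TGANTCA, on either strand). The stretches lie at chr10:86300162-86300411 (plus strand, Timp3), chr4:43875280-43875529 (plus, Reck), chrX:20869916-20870165 (plus, Timp1), chr1:79858666-79858915 (minus, Serpine2) and chr7:24462233-24462482 (plus, Plaur).
Timp3 promoter: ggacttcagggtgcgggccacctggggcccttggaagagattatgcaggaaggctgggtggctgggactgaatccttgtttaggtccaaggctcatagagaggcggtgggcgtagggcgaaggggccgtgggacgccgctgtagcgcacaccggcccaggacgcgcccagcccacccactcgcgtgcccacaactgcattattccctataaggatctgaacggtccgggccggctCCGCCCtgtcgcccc
Reck promoter: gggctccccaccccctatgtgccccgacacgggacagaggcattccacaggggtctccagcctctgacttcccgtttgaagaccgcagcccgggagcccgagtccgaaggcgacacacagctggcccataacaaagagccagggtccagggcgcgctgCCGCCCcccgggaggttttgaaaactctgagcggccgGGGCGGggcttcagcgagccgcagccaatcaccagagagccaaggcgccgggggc
Timp1 promoter: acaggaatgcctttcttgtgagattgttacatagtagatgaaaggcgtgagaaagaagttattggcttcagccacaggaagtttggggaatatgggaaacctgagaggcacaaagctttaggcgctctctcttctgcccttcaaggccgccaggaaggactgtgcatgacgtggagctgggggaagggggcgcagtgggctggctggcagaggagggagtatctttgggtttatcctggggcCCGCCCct
Serpine2 promoter: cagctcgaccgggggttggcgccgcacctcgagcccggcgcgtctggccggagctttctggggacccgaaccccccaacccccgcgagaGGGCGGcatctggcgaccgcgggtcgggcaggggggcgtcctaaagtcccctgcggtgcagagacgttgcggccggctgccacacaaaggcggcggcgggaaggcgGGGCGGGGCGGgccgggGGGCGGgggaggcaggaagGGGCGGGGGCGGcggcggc
Plaur promoter: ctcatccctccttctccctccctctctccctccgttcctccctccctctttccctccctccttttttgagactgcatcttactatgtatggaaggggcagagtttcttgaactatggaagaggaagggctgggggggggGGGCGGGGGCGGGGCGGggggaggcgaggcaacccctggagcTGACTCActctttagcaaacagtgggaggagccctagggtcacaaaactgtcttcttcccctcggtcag

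GC boxes numbered 6 in the Serpine2 promoter, 3 in Plaur, 2 in Reck, 1 each in Timp1, Timp2 and Timp3, and 0 in Timp4. Neighbouring boxes share a base at 1 place each in Serpine2 and Plaur, where 2 boxes meet in the run GGGCGGGGCGG. Of all 32851 promoters of this length in the table, 32.7% held a GC box. The AP-1 motif was found only in Plaur among the 7, at 69 to 63 bases before the start, and in 6.75% of all promoters. Neither TATAAA nor AGGTCA, the half-site of many nuclear receptors, was found in the 7 windows, and these were in 12.4% and 14% of all promoters. The GC content of the 7 promoters ran from 53.6% in Timp4 to 78.8% in Serpine2, against a median of 52.4% over all promoters. These matches describe letters in short windows and are not evidence of binding.

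The labels were checked with Oscar itself, which had 3 to 4 counts per Control culture, 173445 to 187278 per Ad-OSCAR culture and 80766 to 94199 per Ad-OSCAR + 5-ASA culture. Total counts ran from 19733448 to 28192740 per culture. The chondrocyte label was checked with 8 markers, among them Col2a1 and Acan, whose summed level was 42520.1 to 48294 CPM (counts scaled to library size) in Control, 3081 to 3476 in Ad-OSCAR and 3959.6 to 4425 in Ad-OSCAR + 5-ASA. The 5 markers of superficial-zone cells or synovial fibroblasts summed to 369.5 to 392, 1174 to 1193 and 997 to 1091 CPM. Of these, Prg4 (mean 247 in Control and 897 in Ad-OSCAR) and Pdpn (116 and 283) were higher in Ad-OSCAR, whereas Thy1 (14.1 and 2.43) and Dpp4 (1.62 and 0.502) were lower, and Pi16 was near 0. Of 8 macrophage markers, 5 (Adgre1, Ptprc, C1qa, C1qb and Tyrobp) had at most 3 counts in every culture, and the list summed to 3.73 to 5.71 CPM in Control, 9.68 to 10.1 in Ad-OSCAR and 7.73 to 8.31 with 5-ASA. Most of that difference was in Cd68 (mean 1.99 in Control and 8.21 in Ad-OSCAR), while Csf1r (0.77 and 0.548) and Mrc1 (1.81 and 1.02) were lower in Ad-OSCAR. Of 6 endothelial markers, Cdh5, Emcn and Tie1 had at most 3 counts in every culture, and the list summed to 0.634 to 1.18, 2.13 to 3.13 and 1.58 to 1.9 CPM. The 4 osteoblast markers, led by Ibsp, summed to 33.7 to 40.4, 4.84 to 7.34 and 12.7 to 13.8 CPM, and the 4 osteoclast markers to 17.7 to 18.6, 16.9 to 17.1 and 16.1 to 17.2 CPM. The osteoclast sums overlapped between Ad-OSCAR and Ad-OSCAR + 5-ASA, and in that list Acp5 was lower in Ad-OSCAR (mean 12.6 in Control and 8.22) and Ctsk higher (5.32 and 8). The other sums differed between all groups alongside the genes below, and the part of these cell markers in those differences was not tested. In bulk RNA, fewer cells of a type and less RNA per cell cannot be told apart.

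In Control chondrocytes the TIMPs and Serpine2 were among the abundant transcripts, while the activators were scarce. Levels of different genes are compared here in TPM, which divides by transcript length. Timp1 led with 1442 to 1572 TPM, followed by Timp3 with 1022 to 1115, Timp2 with 826 to 863 and Serpine2 with 753 to 809.9. Plaur (54.6 to 59.7), Reck (32.8 to 34.4), Plat (19.1 to 20.4) and Plau (12.7 to 14) came next, and no neighbours in this order overlapped. Timp4 was last, with 0.06 to 0.46 TPM and 3 to 5 counts per culture. By mean TPM over all genes in the files, Timp1 stood at rank 96, Timp3 at 146, Timp2 at 185 and Serpine2 at 195.

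Forced OSCAR expression changed this order. In Ad-OSCAR cultures Serpine2 was first, with 2114 to 2212 TPM and rank 37 over all genes, and Timp1 was second, with 1998 to 2102 TPM and rank 41. Timp2 followed with 522 to 533 TPM, Timp3 with 103 to 109.7 at rank 1237, and Plaur with 37.1 to 46. Plat (10.6 to 12) and Reck (10.3 to 11) overlapped, and Plau (6.32 to 7.45) and Timp4 (0.03 to 0.08) were lowest. With 5-ASA, Timp1 (2157 to 2203) and Serpine2 (2059.9 to 2186) overlapped at the top, followed without overlap by Timp2 (495 to 519.6), Timp3 (181 to 191), Plaur (40.9 to 46.3), Reck (14 to 15.3), Plat (11.2 to 11.7), Plau (6.38 to 6.75) and Timp4 (0.02 to 0.15). Timp3 then stood at rank 626.

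The first comparison asked what OSCAR overexpression did to these genes. Timp3 and Reck, the matrix-bound and the membrane-bound inhibitor, fell by the most, and Serpine2 rose by the most. Timp2, Plat, Plau and Plaur fell by smaller amounts, and Timp1 rose. At an adjusted p below 0.05 in edgeR's quasi-likelihood test, 2 of the 8 genes tested were higher and 6 were lower. Of all 15362 genes tested, 65.0% were called, 32.7% higher and 32.2% lower, so a call by itself was common. The share of calls that were higher was 50.4%, and 62.8% with scaling by library size only, which moved the median of all genes to 0.15. The cultures of the groups did not overlap in CPM for any of the 8 genes, which was also so for 69.0% of all genes. The median log2 fold change of the 8 genes was -0.84, against 0.02 for all genes, and the median size without sign was 0.91 against 0.38. Timp4, with 2 to 5 counts per culture over the 9 cultures, did not pass the filter on low counts and has no test.

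**Figure D1:**
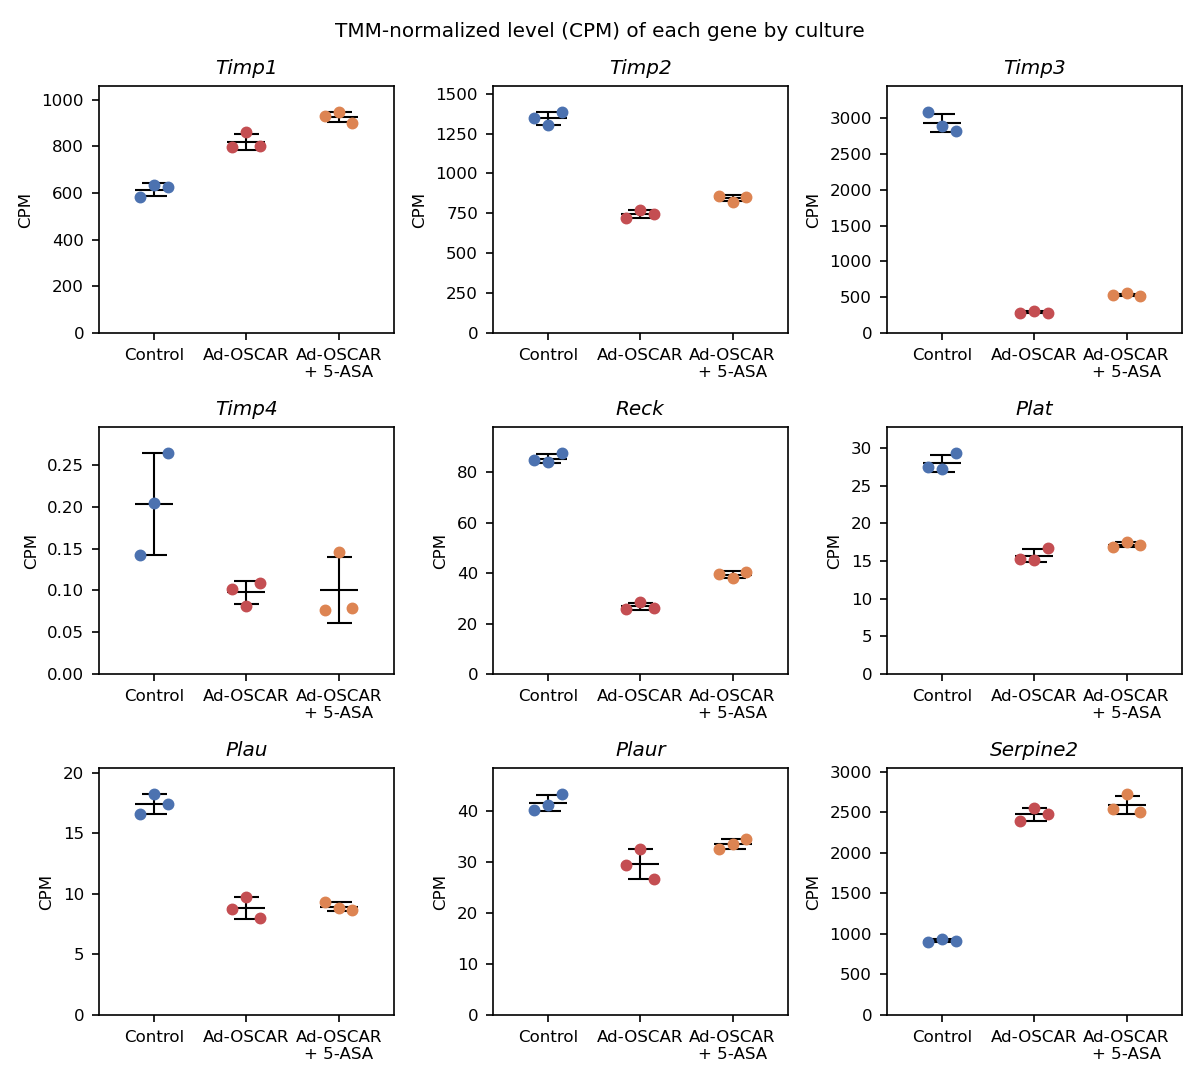
TMM-normalized CPM of each of the 9 genes (y axes, from 0) in the 3 cultures of Control, Ad-OSCAR and Ad-OSCAR + 5-ASA (x axes). Points are cultures and bars are mean ± SD; Timp3 falls from a mean of 2933 to 287 CPM and Serpine2 rises from 917 to 2476, while Timp4 stays below 0.3 CPM throughout.

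Timp3 had 3079, 2895 and 2825 CPM in the Control cultures, 286, 302 and 274 in Ad-OSCAR, and 527, 552 and 516 in Ad-OSCAR + 5-ASA. Every Control culture was far above every infected culture that carried OSCAR, and every 5-ASA culture was above every untreated Ad-OSCAR culture. The fall under OSCAR was 10.2-fold (log2 fold change -3.35, SE 0.05, edgeR adjusted p = 3.29e-19), and only 183 of the genes tested, 1.19%, fell by more. Timp3 (ENSMUSG00000020044.13, GRCm38 chromosome 10, 86300372 to 86349506, plus strand) lies inside Syn3 on the opposite strand and shares 1733 exon bases with it. Syn3 had 10 to 68 counts per culture against 7370 to 70460 for Timp3, and summing both, an alternative chosen after seeing the data, left every Timp3 call in place. It is not known whether counting used strand, and if it did not, reads in the shared bases cannot be told apart.

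Reck had 84.8, 84 and 87.5 CPM in Control, 25.8, 28.5 and 26.3 in Ad-OSCAR, and 39.7, 38 and 40.6 with 5-ASA. The 3 groups were separate, with the 5-ASA cultures between the others. Reck (ENSMUSG00000028476.13, chromosome 4, 43875530 to 43944806, plus strand) fell 3.18-fold under OSCAR (log2 fold change -1.67, SE 0.05, edgeR adjusted p = 3.5e-15). Of the genes tested, 4.61% fell by more.

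Timp2, a secreted inhibitor that also takes part in activating pro-MMP-2 on the cell surface, had 1349.9, 1304 and 1382 CPM in Control, 723, 773 and 747 in Ad-OSCAR, and 859, 824 and 850.5 with 5-ASA. Control cultures were highest and Ad-OSCAR cultures lowest. The fall under OSCAR was 1.8-fold (log2 fold change -0.85, SE 0.04, edgeR adjusted p = 2.62e-12). Timp2 (ENSMUSG00000017466.9) lies on chromosome 11, 118301069 to 118355740, minus strand, and spans Cep295nl, a gene of 22 to 47 counts per culture that shares none of its exon bases.

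Timp1, a secreted inhibitor that many inflammatory and growth signals induce, had 584, 635 and 625 CPM in Control, 799, 859.7 and 801 in Ad-OSCAR, and 928, 945 and 901 with 5-ASA. All Ad-OSCAR cultures were above all Control cultures. The rise was 1.33-fold (log2 fold change 0.41, SE 0.05, edgeR adjusted p = 2.16e-07). Timp1 (ENSMUSG00000001131.11, chromosome X, 20870166 to 20874735, plus strand) lies within Syn1 on the opposite strand, with no shared exon bases, and Syn1 had 45 to 236 counts per culture against 11831 to 25915 for Timp1.

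Timp4 had 3, 5 and 5 counts in Control, 3, 2 and 3 in Ad-OSCAR, and 2, 4 and 2 with 5-ASA. These are at or near 3 counts, used here as the floor of detection, so a difference was not detectable at this depth. The gene (ENSMUSG00000030317.8) lies on chromosome 6, 115241892 to 115252205, minus strand, inside Syn2 on the opposite strand.

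Both activators fell together with the receptor. Plat had 27.5, 27.2 and 29.3 CPM in Control and 15.3, 15.1 and 16.7 in Ad-OSCAR. Plau had 16.6, 18.2 and 17.4 CPM in Control and 8.75, 9.76 and 8 in Ad-OSCAR. Plaur had 40.2, 41.2 and 43.3 CPM in Control and 29.5, 32.6 and 26.7 in Ad-OSCAR. In all 3 genes the lowest Control culture was above the highest Ad-OSCAR culture. The falls were 1.78-fold for Plat (log2 fold change -0.83, SE 0.06, edgeR adjusted p = 1.76e-09), 1.97-fold for Plau (-0.98, SE 0.08, adjusted p = 9.05e-09) and 1.4-fold for Plaur (-0.49, SE 0.06, adjusted p = 2.19e-06). Plat (ENSMUSG00000031538.6) lies on chromosome 8, 22757727 to 22782844, plus strand, Plau (ENSMUSG00000021822.3) on chromosome 14, 20836660 to 20843385, plus strand, and Plaur (ENSMUSG00000046223.10) on chromosome 7, 24462484 to 24475968, plus strand.

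Serpine2 had 897, 938 and 916 CPM in Control, 2397, 2556 and 2474 in Ad-OSCAR, and 2539, 2720.1 and 2506 with 5-ASA. The infected cultures that carried OSCAR lay far above Control, and those with and without 5-ASA overlapped. The rise under OSCAR was 2.7-fold (log2 fold change 1.43, SE 0.04, edgeR adjusted p = 2.23e-15), and 4.97% of genes tested rose by more. Serpine2 (ENSMUSG00000026249.10) lies on chromosome 1, 79794197 to 79861180, minus strand.

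Under the study's own rule for OSCAR, an adjusted p below 0.05 and an absolute log2 fold change above 1.5, only Timp3 and Reck were called among the 8 genes, both lower, against 9.96% of all genes in either direction, 4.57% higher and 5.39% lower. Every call of the 8 genes in this comparison kept its direction and its side of the threshold in edgeR, DESeq2 and limma under each other normalization, filter and left-out culture tried.

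**Figure D2:**
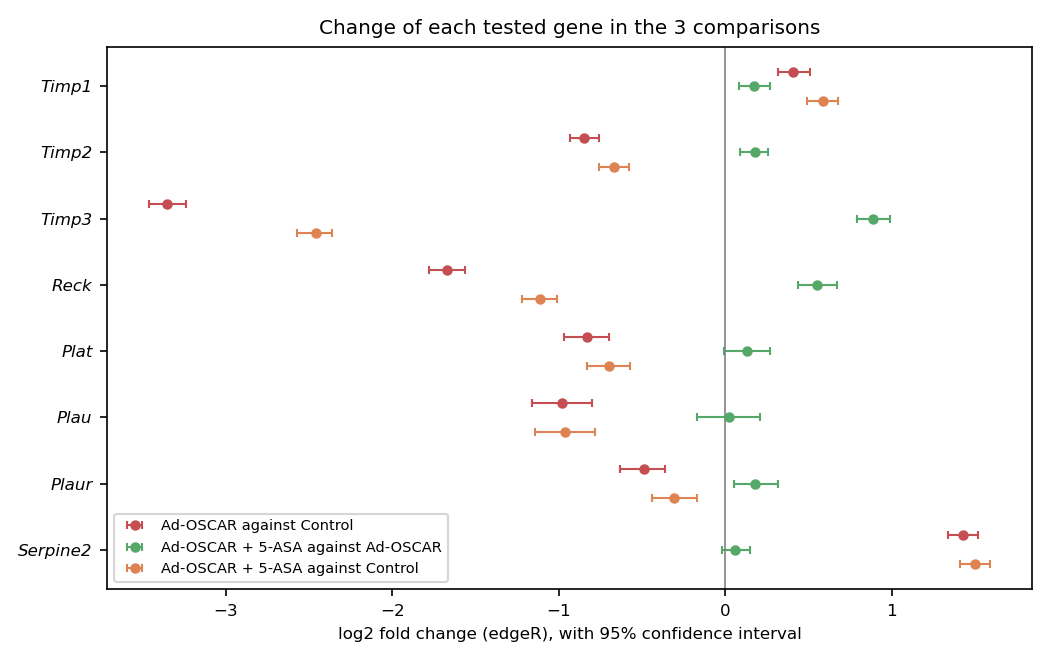
Log2 fold change with its 95% confidence interval (x axis, edgeR) of the 8 genes tested (y axis) in the 3 comparisons, by colour. Timp3 (-3.35) and Reck (-1.67) lie furthest left and Serpine2 (1.43) furthest right for Ad-OSCAR against Control, and the intervals of Plat, Plau and Serpine2 cross 0 for 5-ASA.

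The next comparison set Ad-OSCAR + 5-ASA against Ad-OSCAR, to ask what the drug did in cells that overexpress OSCAR. Timp3 and Reck were higher with 5-ASA, and Timp1 and Timp2 were slightly higher. The activators, the receptor and Serpine2 did not pass the test. At an adjusted p below 0.05, 4 of the 8 genes were higher and 0 lower, where 17.8% of all genes tested were called, 10.4% higher and 7.38% lower. Of all calls, 58.5% were higher, and with scaling by library size only 29.5% were higher. Groups did not overlap for 6 of the 8 genes, as for 33.8% of all genes. The median log2 fold change of the 8 genes was 0.17 against 0 for all genes, and the median size was 0.17 against 0.12. This comparison uses the same Ad-OSCAR cultures as the first, so the 2 sets of values are not independent. Oscar itself was 1.96-fold lower with 5-ASA (log2 fold change -0.97, SE 0.06, edgeR adjusted p = 1.76e-08), and the part of that difference in the values below was not tested.

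With 5-ASA, Timp3 rose 1.85-fold (log2 fold change 0.89, SE 0.05, edgeR adjusted p = 4.89e-09), and 1.18% of genes tested rose by more. Reck rose 1.47-fold (0.55, SE 0.05, adjusted p = 9.35e-07), and 3.72% rose by more. Both calls by adjusted p held in every other fit, filter and left-out culture run. By the study's rule for 5-ASA, a fold above 1.5 at an unadjusted p below 0.05, Timp3 was the only gene of the 8 called, against 4.15% of all genes in either direction and 2.27% higher. The study's methods word that rule for treated cells against Ad-Control in DESeq2. Here it is put on the edgeR fit of treated against untreated Ad-OSCAR cells.

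Timp1 was 1.13-fold higher with 5-ASA (log2 fold change 0.17, SE 0.04, edgeR adjusted p = 0.0111). Timp2 was also 1.13-fold higher (0.18, SE 0.04, adjusted p = 0.00589). Neither call held without Ad-OSCAR replicate 1, where the adjusted p was 0.0701 for Timp1 and 0.0502 for Timp2. Scaling by library size only gave 0.111 and 0.0731. On TPM, tested by limma on log2(TPM + 1), Timp1 gave 0.09 (adjusted p = 0.159), and Timp2 turned to -0.04 (adjusted p = 0.429).

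Plaur had 32.6, 33.5 and 34.5 CPM with 5-ASA, next to 29.5, 32.6 and 26.7 without, a difference of 0.18 on the log2 scale (the lowest treated and the highest untreated culture are equal at this rounding, 95% confidence interval 0.05 to 0.32, edgeR adjusted p = 0.0555). It passed without Ad-OSCAR replicate 2 (0.25, adjusted p = 0.011), when no genes were filtered out (adjusted p = 0.0374) and when each culture had to hold 10 counts or more (adjusted p = 0.0486). Plat had 16.9, 17.5 and 17.2 CPM with 5-ASA, a difference of 0.13 (interval -0.01 to 0.27, adjusted p = 0.189). Plau had 9.35, 8.79 and 8.7 CPM, a difference of 0.02 (interval -0.17 to 0.21, adjusted p = 0.911). For Serpine2 the difference was 0.06 (interval -0.02 to 0.15, adjusted p = 0.328).

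The third comparison, Ad-OSCAR + 5-ASA against Control, asked how far treated cells were from cells without forced OSCAR. All 8 genes tested differed, 2 higher and 6 lower, where 63.2% of all genes were called, 31.4% higher and 31.8% lower. Timp3 was still 5.52-fold lower than in Control (log2 fold change -2.46, SE 0.05, edgeR adjusted p = 8.56e-18), beside 10.2-fold lower without the drug. Reck was 2.17-fold lower (-1.11, SE 0.05, adjusted p = 7.66e-13), beside 3.18-fold lower. Serpine2 was 2.82-fold higher (1.5, SE 0.04, adjusted p = 1.39e-15) and Timp1 1.5-fold higher (0.59, SE 0.05, adjusted p = 2.02e-09). Timp2 (-0.67), Plat (-0.7), Plau (-0.96) and Plaur (-0.31) were lower, with adjusted p from 8.44e-11 to 0.000378. The groups did not overlap for any of the 8 genes, as for 66.6% of all genes. By the study's fold rule for 5-ASA, 2 were higher (Timp1 and Serpine2) and 5 lower, against 29.9% of all genes in either direction, 14.6% higher and 15.3% lower. No call among the 8 by adjusted p was lost under any alternative run.

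The make-up of the TIMP pool was read from TPM, with exact two-sided permutation tests over cultures, whose smallest possible p for 3 against 3 is 0.1, so none could reach 0.05. In Control, Timp1 made 44.3% ± 1.57 of the summed TIMP transcripts, Timp3 31.1% ± 1.55 and Timp2 24.5% ± 0.175 (SD, n = 3). In Ad-OSCAR, Timp1 made 76.4% ± 0.378, Timp2 19.7% ± 0.391 and Timp3 3.98% ± 0.124. The groups did not overlap for any of these 3 shares (exact p = 0.1 each). With 5-ASA, Timp3 made 6.41% ± 0.167 and Timp2 17.8% ± 0.551, neither overlapping with Ad-OSCAR (exact p = 0.1 each), while Timp1, at 75.8% ± 0.388, overlapped (exact p = 0.3). Without dividing by length the share of Timp2 turned direction and was 12.8 percentage points higher in Ad-OSCAR than in Control. Timp4, at 2 to 5 counts, made at most 0.0136% in any culture, and its groups overlapped.

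The summed TIMP level was 3425 ± 60.8 TPM in Control, 2680.3 ± 56 in Ad-OSCAR and 2878 ± 18.3 with 5-ASA (SD, n = 3), with no overlap between groups (exact p = 0.1 each). Over 23 metalloproteinase genes the sum was 4990.1 ± 244, 17727 ± 82.8 and 19135 ± 1016 TPM. Mmp3 and Mmp13 gave most of it, with means of 2209 and 2318 TPM in Control and 11531 and 5481 in Ad-OSCAR. The ratio of TIMP to metalloproteinase transcripts was 0.687 ± 0.0214 in Control, 0.151 ± 0.00386 in Ad-OSCAR and 0.151 ± 0.00759 with 5-ASA. Control did not overlap with Ad-OSCAR (exact p = 0.1), and the groups with and without 5-ASA overlapped (exact p = 1). These are ratios of transcripts, not of proteins.

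**Figure D3:**
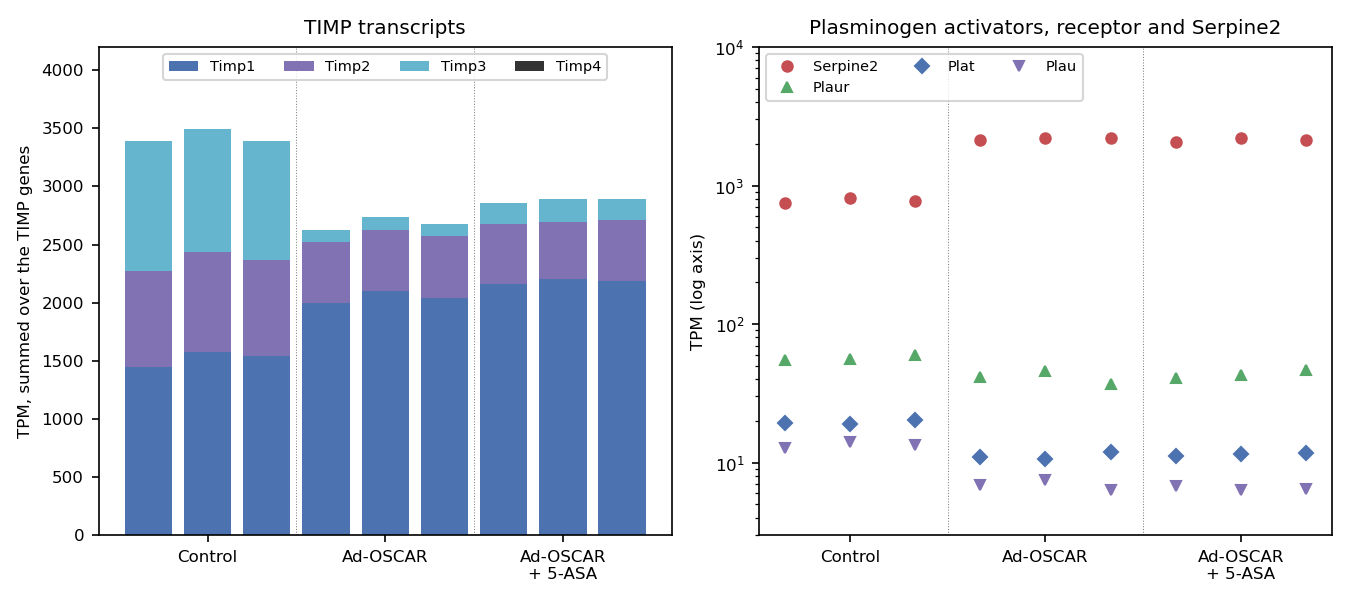
TPM in each culture, grouped by condition on the x axis, stacked over the TIMP genes from 0 (left) and for the activators, the receptor Plaur and Serpine2 on a log axis (right). The Timp3 segment shrinks from a mean of 1065 to 107 TPM under OSCAR, and Serpine2 rises while Plaur, Plat and Plau fall.

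Among the plasminogen activators, Plau and Plat together had 32.9 ± 0.927 TPM in Control, 18.1 ± 0.247 in Ad-OSCAR and 18 ± 0.146 with 5-ASA (SD, n = 3). Plau made 40.5% ± 1.55 of the pair in Control and 38.1% ± 3.48 in Ad-OSCAR, which overlapped (exact permutation p = 0.4). With 5-ASA it made 36.2% ± 1.19, which overlapped with Ad-OSCAR (exact p = 0.6) but not with Control (exact p = 0.1). There were 23.7 ± 0.754 Serpine2 transcripts for each activator transcript in Control, 120.3 ± 2.33 in Ad-OSCAR and 118 ± 3.47 with 5-ASA. Control stood apart from both (exact p = 0.1 each), and the groups with and without the drug overlapped (exact p = 0.4).

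The estimated transcript make-up changed for Timp2 as well as its level. The annotation gives Timp2 transcripts of 718 and 3709 bases, and the deposited length, an average weighted by estimated abundance, places each culture between them. The long transcript made 71.5%, 66% and 74.1% of Timp2 transcripts in Control, 60.8%, 63% and 62% in Ad-OSCAR, and 68.1%, 69.2% and 70.3% with 5-ASA. Every Ad-OSCAR culture was below every other culture. The mean length was 2827.2 ± 124 bases in Control, 2570.9 ± 33.9 in Ad-OSCAR and 2787.1 ± 31.9 with 5-ASA (SD, n = 3). The difference was -256.3 bases for Ad-OSCAR against Control and 216.3 bases for 5-ASA against Ad-OSCAR, without overlap (exact p = 0.1 each). Timp2 with 5-ASA was 844 ± 18.2 CPM against 748 ± 24.9 without, but 511 ± 14 against 527 ± 5.81 TPM. TPM is divided by length and lacks the TMM scaling of CPM, and the parts of the 2 in this turn were not tested. Timp1, whose length overlapped between these groups, was 925 against 819.9 CPM and 2183 against 2047 TPM. The lengths of Reck, Timp3, Plat, Plau and Plaur overlapped between Control and Ad-OSCAR. The mean differed by -30.7 bases for Serpine2 and by 1.3 bases for Timp1 in Ad-OSCAR (exact p = 0.1 each).

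**Figure D4:**
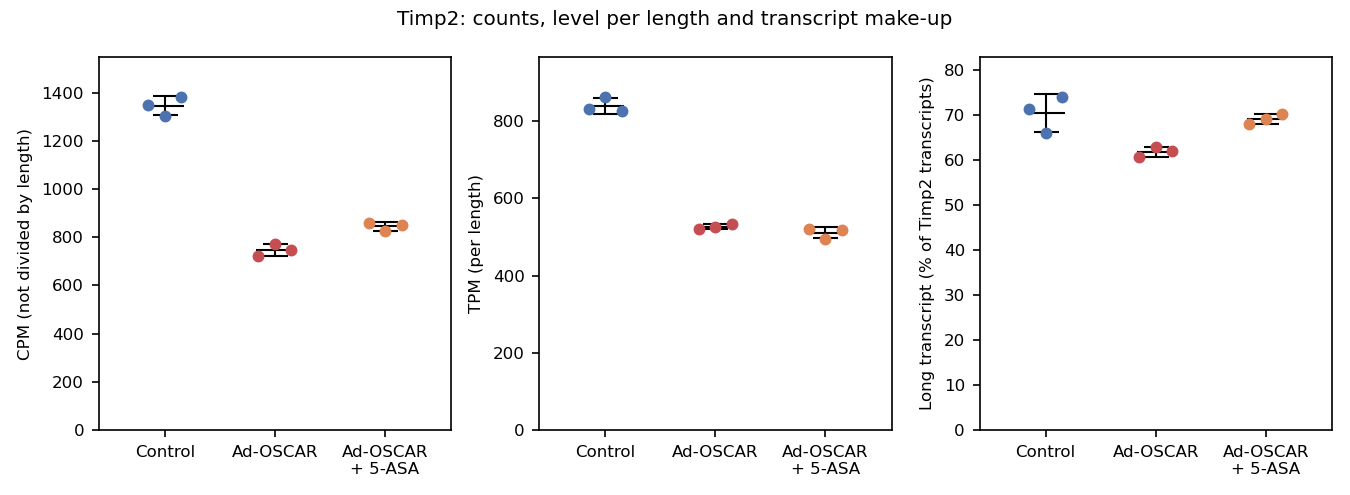
Timp2 in the 3 cultures of each group as TMM-normalized CPM, as TPM, and as the percentage of the long transcript among Timp2 transcripts (y axes, from 0), with mean ± SD. With 5-ASA the CPM lies above Ad-OSCAR (844 against 748) while the TPM does not (511 against 527), and the long transcript is at its lowest in Ad-OSCAR (60.8% to 63%).

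The wider pathway was described with 6 lists of genes set beside the 9 for related roles. From each list the gene with the largest change among those called at 5 CPM or more on average is given with its values. Other genes are named to fill out a count and were picked with their values in view. The calls are those of the same edgeR fit, to be read against 65.0% of all genes called under OSCAR and 17.8% with 5-ASA.

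Most of the listed target proteases of the TIMPs and RECK rose under OSCAR, and the list does not hold all targets. Of the 11 listed, all tested, 9 rose and Adam10 alone fell, where 32.7% of all genes were higher and 32.2% lower. The median of the list was 0.82 on the log2 scale, against 0.02 for all genes. Mmp9, a gelatinase, rose most, from a mean of 1.19 to 8.36 CPM (log2 fold change 2.82, SE 0.16, adjusted p = 2.19e-11). With 5-ASA, 5 were higher (Mmp2, Mmp3, Mmp9, Adamts4 and Adamts5) and 2 lower (Mmp15 and Mmp16), with a median of 0.12 against 0. At 5 CPM or more Mmp9 again changed most, to 12.7 CPM (0.61, SE 0.1, adjusted p = 0.000404). The calls of Adamts4 and Mmp15 were lost in DESeq2 (adjusted p = 0.0885 and 0.0824).

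Of 7 further serpins listed beside Serpine2, not all of them known inhibitors of plasminogen activators or plasmin, 4 were tested. Under OSCAR, Serpinb2 and Serpini1 (neuroserpin) were higher and Serpinb8 lower, with a median of 0.73. Serpinb2 went from 0.11 to 4.77 CPM and Serpini1 from 1.84 to 5.44, far below Serpine2. With 5-ASA, 0 were higher and Serpinb2 and Serpinb8 lower, with a median of -0.43. No gene of this list called in these 2 comparisons reached 5 CPM on average. The call of Serpinb2 with 5-ASA was lost in DESeq2 (adjusted p = 0.13) and with the replicate number as a block (adjusted p = 0.0516).

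Of 11 genes for plasminogen, its receptors and clearance, 9 were tested. Plasminogen itself (Plg) and Vtn did not pass the filter on low counts and have no test. Under OSCAR, Anxa2, Eno1, S100a10, Lrpap1 and Vldlr were lower and Lrp1, the scavenger receptor that takes up serpin and activator complexes, was higher, with a median of -0.29. Anxa2 and S100a10 form the annexin A2 complex that binds plasminogen and tissue-type activator on the cell surface, and Anxa2 fell most, from 1296 to 453 CPM (-1.52, SE 0.04, adjusted p = 3.63e-16). With 5-ASA, Anxa2, Eno1, Mrc2 and Vldlr were higher and 0 lower, with a median of 0.11. The largest was Vldlr, from 167 to 209 CPM (0.32, SE 0.05, adjusted p = 0.000167), and the call of Eno1 was lost with scaling by library size only (adjusted p = 0.451).

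Of 13 further serine proteases, 9 were tested. Under OSCAR, F3, Htra1 and St14 were higher and Furin, Htra3, Pcsk6 and Prss35 lower, with a median of 0. Pcsk6, a proprotein convertase known to activate aggrecanases in cartilage, fell most, from 49.8 to 4.46 CPM (-3.49, SE 0.08, adjusted p = 5.29e-17). With 5-ASA, F3, Pcsk6, Prss23 and Prss35 were higher and St14 lower, with a median of 0.06, and Prss35 rose from 6.55 to 9.82 CPM (0.58, SE 0.1, adjusted p = 0.000524).

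Of 13 Kunitz, serpin and other regulators of pericellular proteases, 9 were tested. Under OSCAR, Spint2 was higher and A2m, Pcolce, Pcolce2, Serpinf1 and Serping1 lower, with a median of -0.72. Pcolce and Pcolce2 are no inhibitors but enhancers of procollagen C-proteinase, and the inhibitors called lower were A2m, Serpinf1 and Serping1. Pcolce2 fell from 36.2 to 3.71 CPM (-3.28, SE 0.09, adjusted p = 5.04e-16). With 5-ASA, Pcolce, Serpinf1 and Serping1 were higher and A2m lower, with a median of 0.24. Serping1, the C1 inhibitor, rose from 35.9 to 74.6 CPM (1.06, SE 0.06, adjusted p = 4.89e-09), beside 79.3 CPM in Control.

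Of 11 growth factors and receptors listed as linked to this system, not all of them substrates of the activators, all were tested. Under OSCAR, Hgf, F2r, Mst1, Pdgfc and Tgfb1 were higher and Tgfb3, F2rl1, Ltbp1, Met and Pdgfd lower, with a median of -0.1. Hgf, which plasminogen activators can cut to its active form, rose from 4.84 to 21.9 CPM (2.17, SE 0.1, adjusted p = 1.07e-12), while its receptor Met went from 22.6 to 16.4. With 5-ASA, F2rl1, Tgfb2 and Tgfb3 were higher and Hgf lower, at 14.1 CPM (-0.64, SE 0.08, adjusted p = 2.59e-05), with a median of 0.04.

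**Figure D5:**
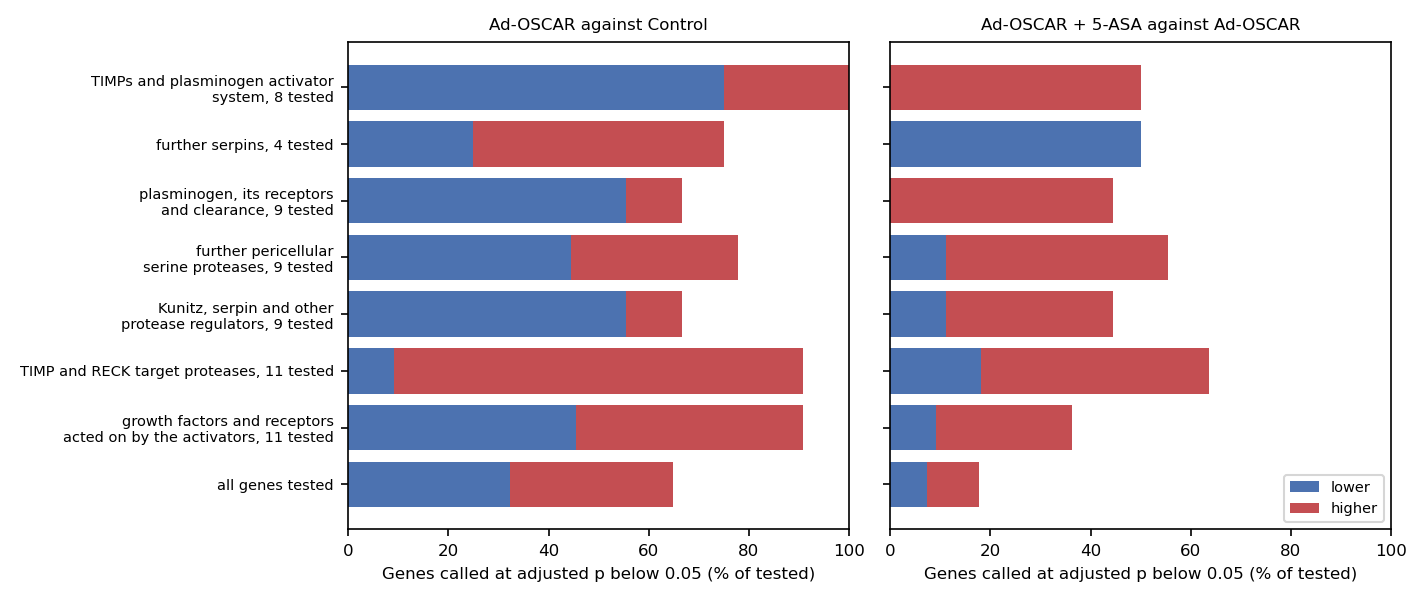
Share of tested genes called lower (blue) or higher (red) at an adjusted p below 0.05 (x axis, %) for the 8 genes tested, for each of the 6 lists and for all genes (y axis), under OSCAR (left) and with 5-ASA (right). Of the listed target proteases, 9 of 11 are higher under OSCAR, against 32.7% of all genes. Among all genes 65.0% and 17.8% are called.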

How the data were processed

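RNA from 9 mouse chondrocyte cultures was sequenced from stranded mRNA libraries. Per the methods and processing notes, the authors checked reads with FastQC, trimmed them with BBDuk, aligned them to GRCm38 with STAR 2.7.1a and made estimated counts with RSEM 1.3.1. The deposited files hold estimated counts, not scaled, beside the authors' TPM and FPKM, which are scaled to library and transcript length, and RSEM's transcript lengths. How strand was treated in counting is not given in the sources used here.

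Symbols and coordinates came from GENCODE M21 (55144 of 55471 rows matched). Estimated counts were rounded to whole numbers and tested in edgeR 4.0.16 (R 4.3.3) with TMM, filterByExpr (15362 genes) and the quasi-likelihood F test in 1 fit of 9 cultures, adjusted by Benjamini-Hochberg. Shares, ratios and lengths were tested by exact two-sided permutation in scipy 1.17.1. Intervals are at 95%. DESeq2 1.42.0, limma 3.58.1 on log2(TPM + 1) or log2(TPM + 0.1), other normalizations and filters, each culture left out and the replicate number as a block were alternatives. Shares were also taken from FPKM. DESeq2 was the study's tool.

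All 9 genes are named. For the pathway lists, counts and the gene with the largest change among those called at 5 CPM or more are given. Other list genes and markers named were chosen after their values were seen. A list was shortened by 1 gene that is not reported here. The members and lists were chosen with earlier results of these data known. On simulated counts for Ad-OSCAR against Control (15128 genes tested), 91.7% of 84 genes changed by 1 and 99.1% of 114 changed by 2 on the log2 scale were recovered. Of the unchanged genes, 9 were called. The simulation gave every gene the same dispersion and changed few genes, whereas 65.0% were called in the data, so these rates may not carry over. Cultures of a group differed by more than sampling noise (chi-square per degree of freedom 4.03 to 7.52). Same-numbered cultures did not deviate together (correlations of -0.145 to 0.174 over 9 pairs), so the numbers were not taken as pairs.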

Additional observations from a re-analysis of the deposited data

How the results depend on the processing

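All 8 tested genes kept their calls for Ad-OSCAR against Control and for Ad-OSCAR + 5-ASA against Control in edgeR, DESeq2 and limma, apart from the study's fold rule, which left 0 higher and 2 lower in the first and 2 higher and 5 lower in the second. With 5-ASA against Ad-OSCAR, 4 were higher, and 2 with library size only and with limma on log2(TPM + 1) or log2(TPM + 0.1), 1 with the study's fold rule, and 2 to 5 with 1 culture left out, the 2 without Ad-OSCAR replicate 1. Timp2 gave -0.04 in both limma fits, which differ from the main test in tool, scaling and division by length at once, and the cause was not tested.

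The replicate number as a block left 4 members higher, and as the numbers do not pair the cultures it is given only as a check. It changed the call of no member. In the lists with 5-ASA it left 1 of the further serpins lower instead of 2, lost the calls of Serpinb2, Adamts4 (adjusted p = 0.053) and Eno1 (adjusted p = 0.0634), and added Mmp13 (adjusted p = 0.0364) and Lrp1 (adjusted p = 0.0388).

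CPM not divided by length weights long transcripts more. It moved the share of Timp1 to -3.99 percentage points with 5-ASA and 27.6 against Control, of Timp2 to 12.8 under OSCAR, -3.61 with 5-ASA and 9.21 against Control, of Timp3 to -44.4, 7.61 and -36.8, and of Timp4 to 0.0011 under OSCAR. The log2 ratio of TIMP to metalloproteinase transcripts moved to -3.07, 0.121 and -2.95. DESeq2 left 1 further serpin and 1 target protease lower with 5-ASA, 2 further serpins lower under OSCAR, 5 growth factors and receptors higher with 5-ASA, and 2 Kunitz, serpin and other regulators higher under OSCAR. Scaling by library size only, chosen for the lists after seeing the data, gave 2 of those regulators higher under OSCAR and 2 lower with 5-ASA, and 1 target protease and 1 further serpin lower with 5-ASA against Control. The cause of these list differences was not tested.

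With 3 cultures a group, shares and ratios could not reach 0.05. Timp4, at 2 to 5 counts, was below what this depth can compare.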
